A study of Homo sapiens with 6 samples.

Results

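SUMO-2/3 peaks at the starts of long non-coding RNA (lncRNA) genes were examined in HL-60 cells, an established human acute myeloid leukaemia line. A peak belonged to this set if its midpoint lay within 1 kb of the 5′ end of a GENCODE lncRNA gene and more than 5 kb from every start of a protein-coding transcript, so that promoters shared with coding genes were left out. A stretch of the long arm of chromosome 8, amplified in this line, was not counted. The set held 1990 of 146693 peaks, namely 667 of 43191 in mock-treated cells, 944 of 71112 in Ara-C-treated cells and 379 of 32390 in DNR-treated cells. No allele or transgene is stated for any group. The cells were mock-treated, exposed to cytarabine (Ara-C, 2 µM) or exposed to daunorubicin (DNR, 1 µM), each for 2 h. Chromatin was precipitated with an antibody to SUMO-2/3 and sequenced, and 3 biological replicates were pooled into 1 library per condition. Because each condition had 1 library, no difference between conditions has a replicate check and no p-value is given. The 3 input libraries were not analysed here. The peak lists hold positions only, with no height and no read count, so the sequencing depth behind them is unknown and every interval below covers counting error only.

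SUMO-2 and SUMO-3 are small ubiquitin-like proteins that are attached to lysines of other proteins, and on chromatin much of the modified protein consists of transcription factors and cofactors at promoters and enhancers. lncRNA genes are transcribed by RNA polymerase II like coding genes, but many of their starts lack the CpG-rich promoters of housekeeping genes and lie close to enhancers. Ara-C is built into DNA and blocks its replication, while DNR intercalates into DNA and poisons topoisomerase II.

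Sequences were chosen to show 3 kinds of letters under the peaks: the core of the CTCF site (bound by the factor that organises chromatin loops), the B box of tRNA genes (the internal element recognised by the RNA polymerase III factor TFIIIC), and GC-rich promoter sequence. Each line below gives the bases shared by the overlapping peaks of a lncRNA start, or those of its peak where a single list had one, on the strand of the lncRNA, read from GRCh37 (hg19), with the central 300 bases where the shared stretch was longer. Capitals mark matches, on either strand, to the motifs that were searched. SLC25A25-AS1 (chr9:130879951-130880200), ENSG00000286727 (chr18:75362801-75363050) and ENSG00000230107 (chr22:42833651-42833800) are shown because peaks of all 3 lists overlapped there, over a CTCF core match.
SLC25A25-AS1: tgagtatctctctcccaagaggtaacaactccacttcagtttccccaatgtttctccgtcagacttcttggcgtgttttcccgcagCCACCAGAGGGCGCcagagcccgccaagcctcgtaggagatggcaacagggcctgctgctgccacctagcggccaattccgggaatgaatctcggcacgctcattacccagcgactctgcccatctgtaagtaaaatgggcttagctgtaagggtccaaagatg
ENSG00000286727: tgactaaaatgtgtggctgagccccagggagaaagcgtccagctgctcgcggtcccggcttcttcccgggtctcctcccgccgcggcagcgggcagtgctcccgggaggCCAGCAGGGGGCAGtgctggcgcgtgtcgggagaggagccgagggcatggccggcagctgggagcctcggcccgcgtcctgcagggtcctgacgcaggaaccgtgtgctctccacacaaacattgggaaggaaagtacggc
ENSG00000230107: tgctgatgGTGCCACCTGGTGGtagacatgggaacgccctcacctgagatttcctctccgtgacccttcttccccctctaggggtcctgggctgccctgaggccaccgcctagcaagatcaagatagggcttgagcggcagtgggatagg

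LINC02453 (chr12:98897151-98897350), LINC01623 (chr6:28831451-28831750) and HCG11 (chr6:26521451-26521650) are shown because peaks of all 3 lists overlapped there and the shared bases held a B box, searched as GGTTC, any base, A, any pair of bases and CC. The B box was added to the search after these sequences had been read.
LINC02453: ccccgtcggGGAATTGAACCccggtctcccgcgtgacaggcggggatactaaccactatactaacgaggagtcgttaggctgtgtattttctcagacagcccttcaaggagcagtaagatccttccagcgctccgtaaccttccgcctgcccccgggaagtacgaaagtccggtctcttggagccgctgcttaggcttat
LINC01623: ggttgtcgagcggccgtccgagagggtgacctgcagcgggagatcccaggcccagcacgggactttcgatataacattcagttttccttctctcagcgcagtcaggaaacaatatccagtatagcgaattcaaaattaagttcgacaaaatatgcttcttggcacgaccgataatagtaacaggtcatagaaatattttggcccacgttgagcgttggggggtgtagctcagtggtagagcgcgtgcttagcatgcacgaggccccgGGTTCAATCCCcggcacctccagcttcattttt
HCG11: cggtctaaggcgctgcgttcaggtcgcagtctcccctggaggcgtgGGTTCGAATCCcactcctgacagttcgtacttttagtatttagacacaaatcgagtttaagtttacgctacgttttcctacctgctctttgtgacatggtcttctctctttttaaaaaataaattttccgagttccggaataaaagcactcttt

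SNHG17 (chr20:37063951-37064100) is shown as a start covered in all 3 lists with none of the motifs, and MALAT1 (chr11:65264876-65265175) and DLEU1 (chr13:50655651-50655800) as GC-rich stretches called in mock- and Ara-C-treated cells only. The capitals in these last 2 sequences are GC boxes, GGGCGG, the letters read by SP-family factors. DLEU1 is a lncRNA gene of the region deleted in chronic lymphocytic leukaemia.
SNHG17: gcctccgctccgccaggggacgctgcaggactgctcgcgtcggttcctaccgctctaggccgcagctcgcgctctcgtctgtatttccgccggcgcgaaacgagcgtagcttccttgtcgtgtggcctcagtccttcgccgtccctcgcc
MALAT1: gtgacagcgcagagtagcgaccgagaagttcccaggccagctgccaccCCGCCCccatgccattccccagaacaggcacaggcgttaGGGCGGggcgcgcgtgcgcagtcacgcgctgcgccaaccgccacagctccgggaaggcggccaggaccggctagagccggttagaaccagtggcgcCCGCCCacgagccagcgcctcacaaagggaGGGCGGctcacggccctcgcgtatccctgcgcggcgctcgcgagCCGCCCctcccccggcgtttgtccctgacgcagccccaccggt
DLEU1: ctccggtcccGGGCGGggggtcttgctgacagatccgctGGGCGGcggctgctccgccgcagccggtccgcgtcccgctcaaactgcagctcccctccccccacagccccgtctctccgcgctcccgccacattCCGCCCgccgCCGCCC

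MIR223HG (chrX:65235026-65235325), the host gene of a microRNA abundant in granulocytes, NORAD (chr20:34638901-34639150), a cytoplasmic lncRNA that binds Pumilio proteins, and ENSG00000266905 (chr18:46490726-46491025), with one of the widest peaks among genes that had start peaks in the DNR list alone, are shown as examples of other motifs. The capitals are the PU.1-type ETS letters GAGGAAG in MIR223HG, the ETS letters CCGGAAG in NORAD and the AP-1 letters TGANTCA in ENSG00000266905. The 300 bases of ENSG00000266905 held no CpG dinucleotide (0), against 36 in the 300 bases of MALAT1.
MIR223HG: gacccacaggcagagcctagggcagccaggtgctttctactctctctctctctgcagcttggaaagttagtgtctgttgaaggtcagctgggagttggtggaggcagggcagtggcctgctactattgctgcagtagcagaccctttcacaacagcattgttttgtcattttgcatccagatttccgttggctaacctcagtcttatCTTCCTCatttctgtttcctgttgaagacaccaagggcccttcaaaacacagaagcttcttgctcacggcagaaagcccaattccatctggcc
NORAD: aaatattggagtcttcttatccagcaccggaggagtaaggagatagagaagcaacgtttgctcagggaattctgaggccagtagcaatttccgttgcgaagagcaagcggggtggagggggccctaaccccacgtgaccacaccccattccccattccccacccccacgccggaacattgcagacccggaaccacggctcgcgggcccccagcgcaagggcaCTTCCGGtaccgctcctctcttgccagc
ENSG00000266905: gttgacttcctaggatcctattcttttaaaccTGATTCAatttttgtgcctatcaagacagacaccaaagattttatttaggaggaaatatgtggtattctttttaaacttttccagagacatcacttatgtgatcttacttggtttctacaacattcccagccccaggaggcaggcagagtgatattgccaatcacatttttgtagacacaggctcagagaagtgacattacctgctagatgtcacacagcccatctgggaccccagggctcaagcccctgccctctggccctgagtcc

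SUMO-2/3 peaks were denser at lncRNA starts than an even spread over the sequenced genome would give, in all 3 lists. The windows around 12687 lncRNA genes covered 23.8 Mb, or 0.835% of the sequenced bases. An even spread would put 361 mock peaks there and 667 were found, a ratio of 1.85 (95% exact Poisson interval 1.71 to 1.99). The ratio was 1.59 (1.49 to 1.69) in the Ara-C list, with 944 peaks against 594, and 1.40 (1.26 to 1.55) in the DNR list, with 379 against 271. The intervals of mock and DNR do not overlap, while those of Ara-C and DNR do. Starts of protein-coding genes were denser still. Within 1 kb of the 5′ ends of coding genes, the match to the gene starts used for lncRNAs, the ratios were 6.68 (6.47 to 6.90) in mock-, 5.01 (4.86 to 5.15) in Ara-C- and 2.11 (1.98 to 2.26) in DNR-treated cells. Within 1 kb of any coding transcript start, a wider class of 126 Mb that also holds starts far inside genes and is called coding starts below, they were 3.37, 2.70 and 1.77. An excess at lncRNA starts was also present with other references. Against the peak density 10 to 50 kb away from the same starts, the ratios were 1.94 (1.8 to 2.10), 1.65 (1.55 to 1.76) and 1.36 (1.23 to 1.50) in the same order, and against an even spread within each chromosome they were 1.73, 1.50 and 1.30.

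The number of peaks at lncRNA starts under the drugs differed from mock by an amount that lay, under DNR, between coding starts and the rest of the genome. The DNR list held 0.568 times as many peaks at lncRNA starts as the mock list (95% exact binomial interval 0.50 to 0.646). At coding starts it held 0.395 times as many (0.377 to 0.413), at coding gene 5′ ends 0.237 times as many (0.220 to 0.255), and among peaks more than 5 kb from coding starts and more than 1 kb from lncRNA starts 0.835 times as many (0.821 to 0.849). Under Ara-C the numbers were 1.42 times mock at lncRNA starts (1.28 to 1.57), 1.32 at coding starts (1.28 to 1.36), 1.23 at coding gene 5′ ends (1.18 to 1.29) and 1.74 away from both (1.71 to 1.76). Thus under DNR the interval for lncRNA starts overlapped none (0) of the other classes, and under Ara-C it overlapped those of coding starts and, at its lower end, of coding gene 5′ ends. The set made up 1.54% of the mock, 1.33% of the Ara-C and 1.17% of the DNR list. Each list was called from 1 pooled library, so library quality and treatment cannot be told apart in these numbers.

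**Figure D1:**
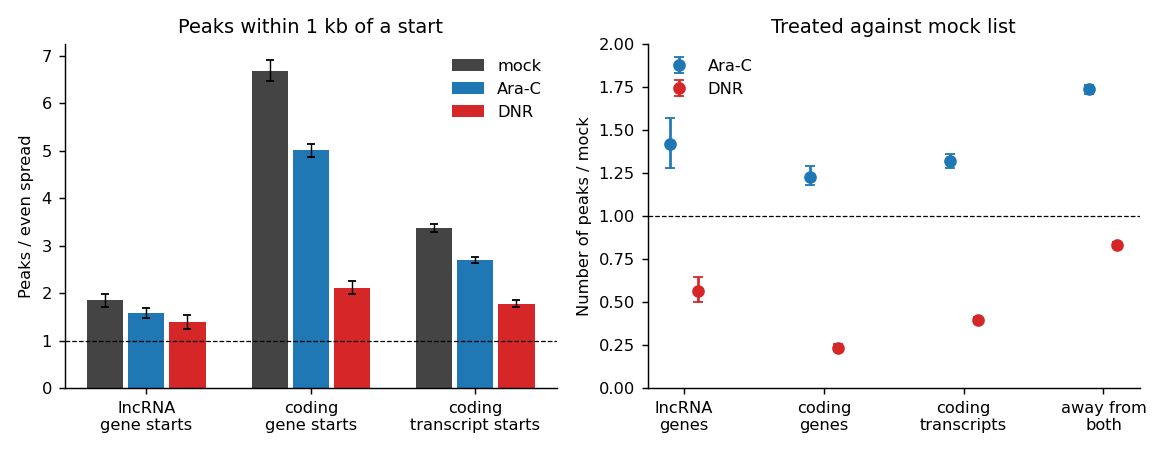
The left panel plots the ratio of observed peaks to an even spread (bars, with 95% exact Poisson intervals) within 1 kb of lncRNA gene starts, of coding gene 5′ ends and of all coding transcript starts for the mock, Ara-C and DNR lists, and the dashed line marks a ratio of 1. The right panel plots the number of Ara-C and DNR peaks divided by the number of mock peaks (points, with 95% exact binomial intervals) for the same classes and for peaks away from both, with the DNR ratio at 0.568 for lncRNA starts, between 0.395 for coding transcript starts and 0.835 away from both.

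The ratio was highest in the bins next to the start. In mock-treated cells, the 250 bp upstream of the start held 147 peak midpoints against 45.5 for an even spread, a ratio of 3.23 (2.73 to 3.80), and the first 250 bp of the gene held 126, a ratio of 2.73 (2.28 to 3.25). The same bins gave 2.56 (2.21 to 2.95) and 2.21 (1.89 to 2.57) in Ara-C-treated cells. In DNR-treated cells they gave 1.67 (1.26 to 2.16) and 1.82 (1.40 to 2.33). Between 750 and 1000 bp into the gene the ratio was 1.18 (0.887 to 1.55), 1.14 (0.909 to 1.41) and 1.16 (0.826 to 1.59), so that no excess was detectable in that bin. Farther out single bins still lay above 1, such as 1000 to 1250 bp into the gene with 1.40 (1.07 to 1.79) in mock and 1.41 (1.04 to 1.88) in DNR. In the DNR list the bins from 2250 to 2000 bp upstream, with 1.43 (1.05 to 1.91), and from 2250 to 2500 bp into the gene, with 1.41 (1.03 to 1.88), did so too, and their intervals overlap those of its central bins.

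Of the peaks in the windows, 41.1% (95% Wilson interval 37.4 to 44.9) lay within 250 bp of the nearest lncRNA start in the mock list, 38.1% (35.1 to 41.3) in the Ara-C list and 31.7% (27.2 to 36.5) in the DNR list. These compare with 25.5% of the window bases. The median distance from the start was 338 bp in mock-, 375 bp in Ara-C- and 460 bp in DNR-treated cells. A peak covered the start itself in 23.8% (20.8 to 27.2) of mock, 19.6% (17.2 to 22.3) of Ara-C and 13.5% (10.4 to 17.3) of DNR members. The peaks fell almost evenly on both sides, with 52.3% (48.5 to 56.1), 51.1% and 49.3% upstream. At the edge of the rule, 33 mock, 65 Ara-C and 31 DNR peaks had their midpoint in the last 100 bp inside 1 kb, and 50, 60 and 34 in the first 100 bp outside it.

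**Figure D2:**
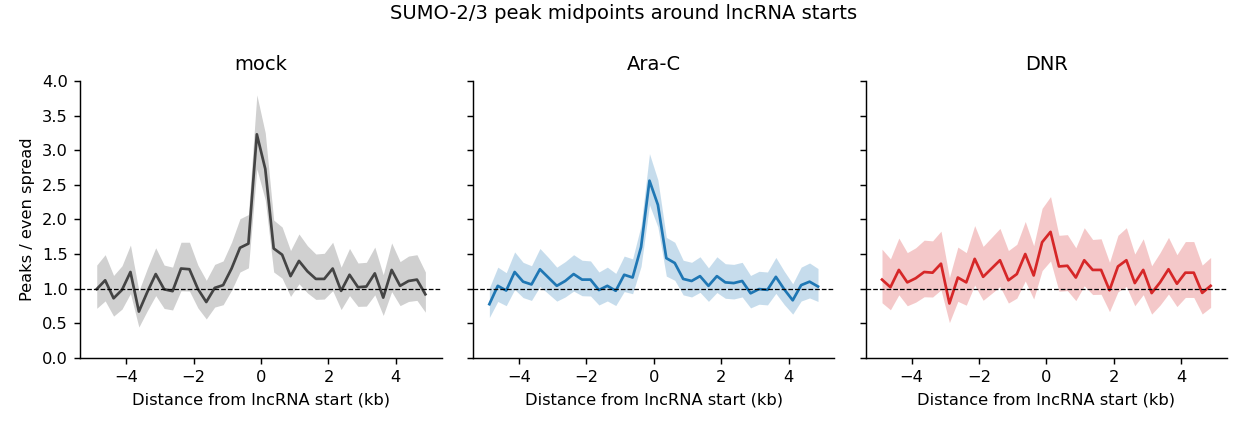
Ratio of peak midpoints to an even spread in bins of 250 bp from 5 kb before to 5 kb after the lncRNA start, in the direction of transcription, in 3 panels for the mock, Ara-C and DNR lists. Lines are the ratios, bands are 95% exact Poisson intervals and the dashed line is a ratio of 1. The central bins reach 3.23 in mock, 2.56 in Ara-C and 1.82 in DNR.

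Peaks at lncRNA starts were wider than peaks away from both kinds of start, clearly so in mock- and Ara-C-treated cells. A width of at least 300 bp was reached by 148 of 667 mock members (22.2%, 19.2 to 25.5), by 143 of 944 Ara-C members (15.1%, 13.0 to 17.6) and by 25 of 379 DNR members (6.60%, 4.51 to 9.56). Away from both kinds of start the shares were 6.62% (6.34 to 6.91), 5.76% (5.56 to 5.96) and 4.24% (3.99 to 4.49), so that for DNR the intervals barely parted. The shares were at coding starts 19.3%, 17.3% and 6.79%, and at coding gene 5′ ends 23.6%, 23.3% and 9.14%. The median width of members was 200 bp in every list, and the widest measured 950 bp in mock-, 1100 bp in Ara-C- and 700 bp in DNR-treated cells. The shortest width in the lists was 150 bp, a limit set by the peak caller.

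Peaks at lncRNA starts were found again in other lists more often than peaks away from both. Between the mock and Ara-C lists they were found again less often than peaks at coding gene 5′ ends. A peak counted as found again if at least 1 bp lay under a peak of the other list. Of the mock members, 200 of 667 were found under Ara-C, which is 30.0% (26.6 to 33.6), against 15.7% of all mock peaks. Only 34 of 667 were found under DNR, which is 5.10% (3.67 to 7.04), against 2.84% of all mock peaks. Of the Ara-C members, 21.2% (18.7 to 23.9) overlapped a mock peak and 4.34% (3.22 to 5.84) a DNR peak, against 9.51% and 2.19% of all Ara-C peaks. Of the DNR members, 8.97% (6.49 to 12.3) overlapped a mock peak and 11.6% (8.76 to 15.2) an Ara-C peak, against 3.78% and 4.82% of all DNR peaks.

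The share of mock members found under Ara-C exceeded that of peaks away from both by 18.7 percentage points (95% Newcombe interval 15.3 to 22.3), and under DNR by 2.67 points (1.23 to 4.62). Against coding starts the differences were -2.67 points (-6.21 to 1.09) and 1.30 points (-0.211 to 3.29), whose intervals include 0. Against coding gene 5′ ends they were -10.8 points (-14.5 to -6.84) and 0.868 points (-0.718 to 2.90), so that the second alone includes 0. Of the Ara-C members, the share found in mock differed from that at coding starts by -3.45 points (-6.10 to -0.579) and from that at coding gene 5′ ends by -11.7 points (-14.6 to -8.69). Of the DNR members, the shares found in mock and under Ara-C were -8.75 points (-12.4 to -4.68) and -7.69 points (-11.6 to -3.31) from those at coding gene 5′ ends. With the widths of the mock members, peaks at coding gene 5′ ends would have been found under Ara-C in 39.0%. Part of the gap to peaks away from both went with width. With the widths of the mock members, peaks away from both would have been found under Ara-C in 19.5% and under DNR in 3.97%. Of the mock members 150 bp wide, 8.02% (5.30 to 11.9) were found under Ara-C, and of those of at least 300 bp 65.5% (57.6 to 72.7). Under DNR the same classes gave 1.91% (0.818 to 4.39) and 12.2% (7.83 to 18.4). Among peaks away from both, 4.73% of the 150 bp class and 52.0% of the widest class were found under Ara-C. In the widest class under DNR, members, at 12.2%, did not stand apart from peaks away from both, at 10.3% (9.06 to 11.8).

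**Figure D3:**
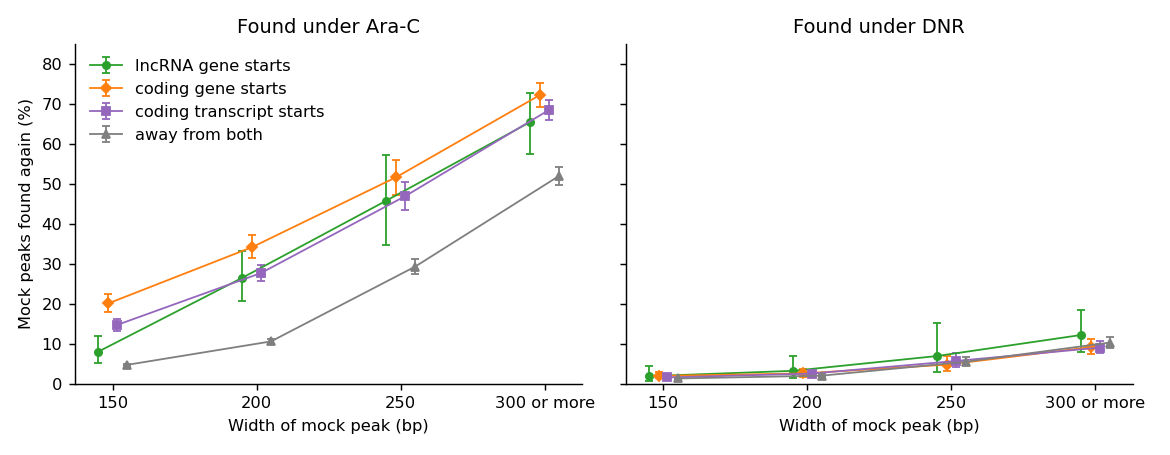
Percent of mock peaks that share at least 1 bp with an Ara-C peak (left) or a DNR peak (right), by width of the mock peak in bp, with 95% Wilson intervals. Circles are peaks at lncRNA gene starts, diamonds peaks at coding gene 5′ ends, squares peaks at all coding transcript starts and triangles peaks away from both. At lncRNA starts the share goes from 8.02% at 150 bp to 65.5% at 300 bp or more under Ara-C, and from 1.91% to 12.2% under DNR.

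Counted by gene, 1573 of the 12687 lncRNA genes had a start peak in at least 1 list. They were 662 genes (5.22%) in mock-, 905 (7.13%) in Ara-C- and 379 (2.99%) in DNR-treated cells. Peaks in more than 1 list were present at 330 genes (2.60%), and in all 3 lists at 43 genes (0.339%). Another 227 genes had peaks in the mock and Ara-C lists alone, 39 in the Ara-C and DNR lists alone and 21 in the mock and DNR lists alone. A start peak in a single list was found at 371 genes for mock, 596 for Ara-C and 276 for DNR. Of the 662 genes with a mock peak, 40.8% (37.1 to 44.6) also had an Ara-C peak and 30.8% had one that overlapped it, whereas 9.67% (7.64 to 12.2) had a DNR peak and 4.98% an overlapping one. Overlapping peaks in every pair of lists were present at 24 genes.

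Below, a peak is placed in an exon or intron by its midpoint. Among those 24 genes, SNHG17 had peaks that covered its start in every list. It is the host of small nucleolar RNAs (snoRNAs), which guide the modification of ribosomal RNA. Its start lies at chr20:37064052 on the minus strand, and its peak measured 350 bp in mock-, 550 bp in Ara-C- and 150 bp in DNR-treated cells. LINC02773, 21871 bp from the start of the transcription factor gene BATF3, had a 650 bp peak over its start in mock-treated cells and 200 bp peaks in an exon under both drugs. LINC02453, 11720 bp from the start of TMPO, had 2 mock peaks of 350 bp on either side of its start, a single Ara-C peak of 1100 bp that covered the start, and a DNR peak of 200 bp in its intron. Thus the peaks of the 3 lists overlapped at these genes but differed in extent, the Ara-C peak being the widest at SNHG17 and LINC02453 and the mock peak at LINC02773.

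At SLC25A25-AS1, named as the antisense transcript of a mitochondrial carrier gene, the peaks lay 896, 846 and 896 bp inside the gene in mock-, Ara-C- and DNR-treated cells, with widths of 350, 350 and 250 bp, over the CTCF core match printed above. The peaks of ENSG00000286727 covered its start, with widths of 300, 300 and 250 bp in the same order, and had identical borders in mock- and Ara-C-treated cells. Those of ENSG00000230107 lay 378, 328 and 278 bp upstream and measured 300, 300 and 200 bp. The upstream border at ENSG00000230107 thus lay 150 bp closer to the start in DNR- than in mock-treated cells.

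Of the other genes in this group, SPATA41 had overlapping peaks of 250, 400 and 200 bp in an exon in mock-, Ara-C- and DNR-treated cells. MIR3663HG, a microRNA host gene, had peaks of 350, 250 and 150 bp that lay 793, 843 and 843 bp inside the gene, and a further 200 bp DNR peak upstream. LINC00273 on chromosome 16 had upstream peaks of 400, 550 and 550 bp, the DNR peak being as wide as the Ara-C peak. ROCK1P1, a pseudogene copy of the kinase gene ROCK1 in the first megabase of chromosome 18, had a mock peak of 250 bp, Ara-C peaks of 200 and 800 bp, and DNR peaks of 350, 150 and 700 bp. It was the gene with the widest DNR member, and since reads of near-identical copies can be placed at either copy, its peaks are uncertain. GNA15-DT, named after its values were seen, had a 600 bp mock peak over its start and peaks of 150 and 200 bp under Ara-C and DNR.

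The remaining genes with overlapping peaks in every pair of lists, all named after their values were seen, were LINC02916, HCG11 and LINC02907 beside 10 genes known by identifier alone. ENSG00000289452, 48640 bp from the start of RPS6KA1, had mock peaks of 250, 750 and 300 bp, Ara-C peaks of 1100 and 200 bp and a single DNR peak of 250 bp that covered the start. ENSG00000267174 had peaks of 550, 800 and 200 bp over its start in mock-, Ara-C- and DNR-treated cells. ENSG00000279927 had upstream peaks of 500, 550 and 300 bp. In each of these 3 genes the DNR peak was narrower than the mock and Ara-C peaks that it overlapped. This was not so at ENSG00000274949, 8615 bp from the start of the cell cycle phosphatase gene CDC25B, where the widths were 200, 250 and 250 bp.

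Overlapping mock and Ara-C peaks with no DNR peak at the start were present at 169 genes, against 6 for mock and DNR without Ara-C and 10 for Ara-C and DNR without mock. The same imbalance was present over all peaks, of which 15.7% of the mock list overlapped an Ara-C peak and 2.84% a DNR peak, and the DNR list was the shortest, so nothing particular to lncRNA starts is read from these counts. MALAT1, an abundant nuclear lncRNA of splicing speckles, had the same 550 bp peak, with identical borders over its start, in mock- and Ara-C-treated cells and none in DNR-treated cells. LINC02332 had the widest mock member, of 950 bp, which reached past the 3′ end of the gene, with a 500 bp peak over its start, and Ara-C peaks of 800 and 450 bp. SNHG25 had a 700 bp mock peak and a 450 bp Ara-C peak, both reaching past its 3′ end. At GPC5-AS2 the Ara-C peak was the wider one, 650 bp against 250 bp, and at GUSBP11 a single Ara-C peak of 650 bp overlapped both of a pair of 150 bp mock peaks. In this group neither list had the wider peaks throughout.

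LINC02910, LINC01132, LINC02569 and LINC02558 also had overlapping mock and Ara-C peaks and no DNR peak. Their widest mock peaks measured 500, 400, 200 and 400 bp and their widest Ara-C peaks 350, 350, 350 and 250 bp in that order. At each of the 4 genes a peak covered the start in both lists.

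Of the pairs that included DNR, PARD6G-AS1 had the same 150 bp peak in an exon in mock- and DNR-treated cells. ENSG00000261978, inside TBC1D16, had a mock peak of 150 bp and a DNR peak of 450 bp. ENSG00000250697, ENSG00000251161 and ENSG00000264149 had mock peaks of 250, 200 and 150 bp and DNR peaks of 150, 150 and 200 bp. LINC01671 had Ara-C and DNR peaks of 200 and 250 bp, of which the Ara-C peak covered the start. ENSG00000240401, ENSG00000231329, ENSG00000232290 and ENSG00000288051 had Ara-C peaks of 350, 350, 150 and 250 bp and DNR peaks of 200, 200, 350 and 200 bp. Most of these peaks measured 150 to 250 bp.

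**Figure D4:**
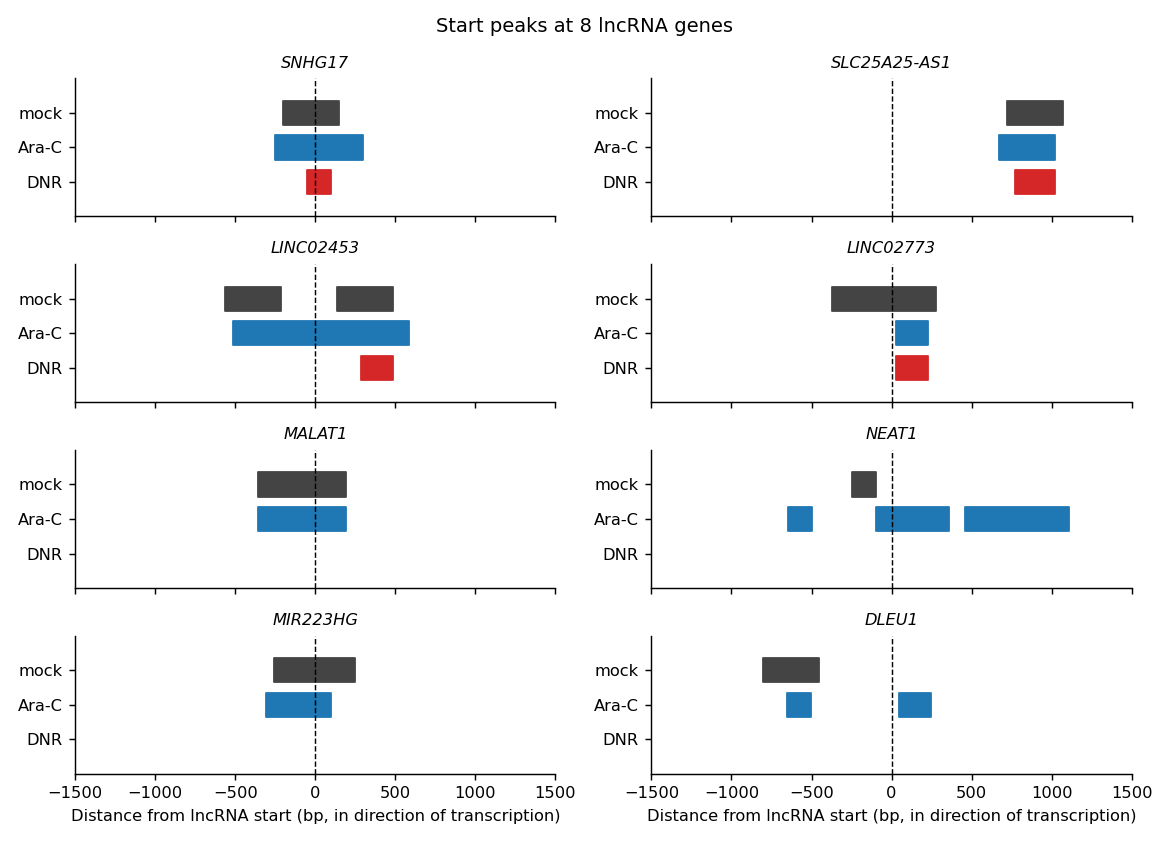
Position and width of start peaks at 8 lncRNA genes, in bp from the start of the gene in the direction of transcription (dashed line at 0), in rows for the mock, Ara-C and DNR lists. SNHG17, SLC25A25-AS1, LINC02453 and LINC02773 have overlapping peaks in all 3 lists, while MALAT1, NEAT1, MIR223HG and DLEU1 have none in the DNR list.

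Among genes whose start peaks all came from a single list, the widest peaks were at ENSG00000288612 and ENSG00000267764 (650 bp each) and CT70 (550 bp) for mock. For Ara-C they were at TALAM1 (850 bp), the antisense transcript of MALAT1, and at ENSG00000248802 and ENSG00000286373 (600 bp each). For DNR they were at ENSG00000266905 and ENSG00000274354 (450 bp each), both on chromosome 18, and at ENSG00000287342 (400 bp). The TALAM1 peak lay at the 3′ end of MALAT1, whose own start had no difference in peak borders between mock- and Ara-C-treated cells.

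Start peaks were counted at host genes of snoRNAs. Of the 28 host genes listed, 17 had a start in the windows, and 7 had a peak in mock-, 7 in Ara-C- and 1 in DNR-treated cells, against 5.22%, 7.13% and 2.99% of all 12687 genes. The list was assembled with results of these data known, so the counts are a description. A peak in any list was present at 10 of the 17, against 1573 of all 12687 genes (12.4%), and in more than 1 list at 4, against 330 of all genes (2.60%). The 4 were SNHG11, SNHG17, SNHG25 and EPB41L4A-AS1. SNHG11 had peaks of 400 and 300 bp in its exon in mock- and Ara-C-treated cells. EPB41L4A-AS1 had peaks of 300 and 400 bp. SNHG8 (300 bp, over the start), SNHG26 (250 bp) and SNHG6 (200 bp) had a mock peak only, and SNHG7 (150, 250 and 200 bp), SNHG16 (150 bp) and DANCR (200 bp) Ara-C peaks only. SNHG17 was the only one of the 17 listed hosts in the windows with a DNR peak.

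Of 23 listed host genes of microRNAs in the windows, 1 had a mock peak, 2 had an Ara-C peak and none (0) had a DNR peak, against 5.22%, 7.13% and 2.99% of all genes. The list does not hold every such host. MIR3663HG and MIRLET7A1HG, which are not in it, had start peaks in all 3 lists, and MIRLET7IHG and MIR3945HG in the mock and Ara-C lists, the last 3 being named after their values were seen. MIR223HG had a 500 bp mock peak and a 400 bp Ara-C peak, both over its start. MIR7-3HG had a 200 bp Ara-C peak in its exon. MIR223HG was the only one of the 23 with peaks in more than 1 condition.

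Nuclear and dosage-related lncRNAs were listed together with NORAD, which is cytoplasmic. Of these genes, 14 had a start in the windows and 7 of them had a peak. The peaks were in 5 genes for mock, 5 for Ara-C and 0 for DNR. Over all 12687 genes the shares were 5.22%, 7.13% and 2.99%, with 1573 genes in any list. NEAT1, the scaffold of nuclear paraspeckles, had a 150 bp mock peak upstream of its start and Ara-C peaks of 150, 450 and 650 bp, the second of them over the start. The mock peak ended at the base before the second Ara-C peak began, so the peaks of the lists touched but did not overlap. JPX, an activator of X inactivation, had peaks of 300 and 250 bp over its start in mock- and Ara-C-treated cells. NORAD had a 250 bp mock peak over its start and MIAT a 200 bp mock peak upstream. FIRRE (150 bp) and the imprinted MEG8 (200 bp) had an Ara-C peak over the start. For DNR, 14 genes are too few for a share below 2.99% to be told apart from it.

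Haematopoietic and leukaemia-linked lncRNAs had peaks at 6 of 16 starts, 3 in mock-, 4 in Ara-C- and 1 in DNR-treated cells, beside the same shares of all genes (5.22%, 7.13% and 2.99%, and 12.4% in any list). DLEU1 had a 350 bp mock peak upstream of its start and Ara-C peaks of 150 and 200 bp, the first inside the mock peak. EGOT, a lncRNA of eosinophil granule gene expression, had a 250 bp mock peak and Ara-C peaks of 150 and 200 bp. LINC02573 (250 bp) and CASC15 (200 bp) had Ara-C peaks, UCA1 (150 bp) a mock peak and LINC00513 (150 bp) a DNR peak. Of 6 lncRNAs tied to DNA damage or p53, NORAD and NEAT1 had peaks, in 2 genes for mock, 1 for Ara-C and 0 for DNR, beside the same shares, and 6 genes are too few to set against them.

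Starts with CpG-rich sequence carried peaks more often. A start was called CpG-rich if the 300 bases from 250 before to 50 after it held at least 50% G and C and a ratio of observed to expected CpG of at least 0.6, which 1225 of 12687 starts met. A mock peak was present at 12.9% (11.1 to 14.9) of CpG-rich starts and at 4.40% (4.04 to 4.79) of CpG-poor starts. For Ara-C the shares were 15.9% (14 to 18.1) and 6.19% (5.77 to 6.65), and for DNR 4.73% (3.68 to 6.07) and 2.80% (2.51 to 3.12). CpG-rich starts made up 8.45% of starts with no peak, 23.9% of those with a mock peak, 21.5% of those with an Ara-C peak, 15.3% of those with a DNR peak, and 44.2% (19 of 43, 30.4 to 58.9) of those with peaks in all 3 lists.

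Mock peaks whose nearest lncRNA start was CpG-rich were also found again more often. Of 154 such mock peaks, 77 (50%, 42.2 to 57.8) overlapped an Ara-C peak and 9.74% (5.99 to 15.4) a DNR peak. Of 513 mock peaks at CpG-poor starts, 24.0% (20.5 to 27.9) and 3.70% (2.38 to 5.71) did. Of the Ara-C peaks, 38.9% (32.3 to 45.9) at CpG-rich and 16.6% (14.2 to 19.5) at CpG-poor starts overlapped a mock peak, while 7.25% (4.37 to 11.8) and 3.60% (2.48 to 5.18) overlapped a DNR peak, the last pair having overlapping intervals. Of the DNR peaks, 28.3% (18.0 to 41.6) of 53 at CpG-rich and 5.83% (3.76 to 8.92) of 326 at CpG-poor starts overlapped a mock peak, and 26.4% (16.4 to 39.6) and 9.20% (6.52 to 12.8) an Ara-C peak. The CpG-rich group of mock peaks was wider, with 38.3% (31.0 to 46.2) at 300 bp or more against 17.3% (14.3 to 20.9). It was also closer to the start, with 53.2% (45.4 to 61.0) within 250 bp against 37.4% (33.3 to 41.7). The part of width in this recurrence was not tested.

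**Figure D5:**
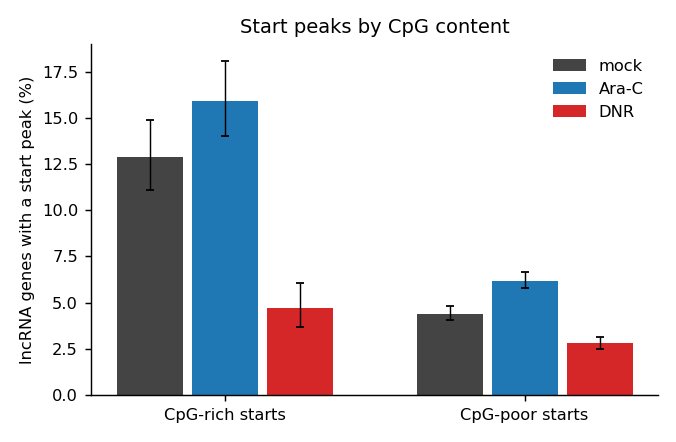
Percent of lncRNA genes with a start peak in the mock, Ara-C and DNR lists (bars, with 95% Wilson intervals) for 1225 CpG-rich and 11462 CpG-poor starts. The bars stand at 12.9%, 15.9% and 4.73% for CpG-rich starts and at 4.40%, 6.19% and 2.80% for CpG-poor starts.

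The shares differed less with the position of the lncRNA relative to coding genes. Starts between coding genes carried a mock peak at 5.61% (5.16 to 6.09) of 9392 genes, starts antisense within a coding gene at 4.29% (3.54 to 5.18) of 2355 and starts in sense within a coding gene at 3.62% (2.60 to 5.01) of 940. For Ara-C these shares were 7.60%, 5.61% and 6.28%, and for DNR 3.13%, 2.59% and 2.55%. All 3 lists had the highest share between coding genes. Its interval overlapped those of other positions in every list, with the exception for Ara-C of the antisense starts (4.75 to 6.61, against 7.08 to 8.16) and for mock of the sense starts.

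The sequence under the peaks differed from its surroundings. The 300 bases centred on a member's midpoint held on average 51.5% G and C in the mock, 51.1% in the Ara-C and 49.8% in the DNR list, against 44.3%, 44.5% and 46.0% in windows 2000 bp away on either side. The CTCF core consensus, searched on both strands, was present in 5.10% (3.67 to 7.04) of mock members, 3.18% (2.24 to 4.50) of Ara-C members and 1.85% (0.897 to 3.76) of DNR members. In the windows 2000 bp away it was present in 2 of 1334, 1 of 1888 and 0 of 757, and at all 12687 lncRNA starts, from 250 before to 50 after, in 0.402%. The share in mock members exceeded that in peaks at coding starts by 2.45 points (0.958 to 4.42) and that in peaks away from both by 2.50 points (1.07 to 4.45). For Ara-C the differences were 1.21 points (0.219 to 2.56) and 1.67 points (0.725 to 3.00). For DNR the difference from coding starts was 0.394 points (-0.700 to 2.35), an interval that includes 0, and that from peaks away from both 1.29 points (0.336 to 3.21). Against coding gene 5′ ends the differences were 3.46 points (1.97 to 5.44) for mock, 1.68 (0.659 to 3.04) for Ara-C and 0.605 (-0.750 to 2.60) for DNR. In 2 of the 3 lists, the CTCF core was therefore more frequent in peaks at lncRNA starts than in peaks at either class of coding start. It was more frequent than in peaks away from both in all 3, which for DNR rests on 7 of 379 members.

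Of the promoter letters, the GC box was present in 20.7% of mock, 18.2% of Ara-C and 12.4% of DNR members, against 13.3% of all lncRNA starts. The ETS letters CCGGAAG were present in 3.90%, 3.92% and 1.58%, against 3.14% of all starts. Both were less frequent than in peaks at coding starts, for mock by -15.8 points (-18.9 to -12.3) for the GC box and -6.01 points (-7.45 to -4.12) for the ETS letters, and against coding gene 5′ ends by -26.7 points (-30.0 to -23.1) and -10.1 points (-11.8 to -8.02). From peaks away from both, the mock differences were 16.0 points (13.1 to 19.3) and 2.72 points (1.49 to 4.48) in the same order. For DNR they were 8.56 points (5.60 to 12.3) and 0.756 points (-0.108 to 2.59), of which the second includes 0. The AP-1 letters were present in 13.0% of mock, 11.4% of Ara-C and 7.65% (5.38 to 10.8) of DNR members, against 11.7% of all starts and, for DNR, 11.4% of the windows 2000 bp away. The mock share was 6.53 points (4.10 to 9.36) above peaks at coding starts, 8.31 points (5.85 to 11.1) above peaks at coding gene 5′ ends and 1.74 points (-0.636 to 4.53) from peaks away from both. For Ara-C the difference from coding starts was 4.43 points (2.47 to 6.68), and for DNR 0.739 points (-1.76 to 3.99), an interval that includes 0. The PU.1-type letters were present in 15.7% (13.2 to 18.7) of mock members and 8.55% (7.16 to 10.2) of the windows 2000 bp away, and in 13.2% (10.2 to 17.0) and 10.3% (8.33 to 12.7) for DNR, against 1396 of all 12687 lncRNA starts (10.5% to 11.6%), an interval that overlaps that of DNR. The mock share was 4.40 points (1.81 to 7.38) above peaks away from both, while its differences from coding starts, 1.85 points (-0.858 to 4.92), and from coding gene 5′ ends, 1.66 points (-1.15 to 4.81), include 0. The TATA letters TATAAA were less frequent in members than in the windows 2000 bp away, with 11.1% against 22.8% for mock. They were present in 11.9% against 21.0% for Ara-C and in 13.5% against 20.9% for DNR. For the RUNX letters TGTGGTT (mock 5.55% against 6.37%) and the YY1 letters AAGATGGC (mock 1.50% against 1.12%), the intervals overlapped in every list. All these are matches of letters in a window and do not show that a factor was bound.

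Members with a B box were counted next. Its letters were present in 19 mock members (2.85%, 1.83 to 4.41), 25 Ara-C members (2.65%, 1.8 to 3.88) and 9 DNR members (2.37%, 1.25 to 4.45), against 0.825%, 0.742% and 1.19% (0.627 to 2.24) of the windows 2000 bp away and 0.796% of all lncRNA starts. For DNR the intervals of members and windows overlap. The differences from peaks at coding gene 5′ ends were 1.11 points (-0.0127 to 2.71) for mock and 0.847 (-0.102 to 2.13) for Ara-C. For DNR the difference was -0.334 points (-2.04 to 1.92), and all 3 intervals include 0. From peaks away from both, the differences were 1.86 (0.837 to 3.42), 1.82 (0.963 to 3.05) and 1.49 points (0.364 to 3.57). Of the 19 mock members, 16 overlapped a peak of another list, against 210 of all 667 (31.5%). Of the 25 Ara-C members 15 did, against 217 of all 944 (23.0%), and of the 9 DNR members 5 did, against 54 of all 379 (14.2%). As the B box was searched for because it was read in members shared by all 3 lists, these counts describe those members and are no independent evidence that it goes with recurrence. The letters were present in 7.62% (4.74 to 12.0) of mock members found in another list and in 0.656% (0.224 to 1.91) of those found in none. Of the 19 mock members, 9 lay on chromosome 6, which held 71 of all 667 (10.6%). Among the 9 were HCG11, ENSG00000284607, LINC00533, HCG14, LINC01623 and LINC01556, in the part of the short arm that holds the largest cluster of human tRNA genes. tRNA genes were not in the annotation used here, so which of these windows hold one was not determined. In the order mock, Ara-C and DNR, the peaks of LINC01623 measured 400, 450 and 300 bp, and those of HCG11 200, 300 and 250 bp. LINC01556 had mock peaks of 150 and 350 bp, Ara-C peaks of 300 and 150 bp and a DNR peak of 200 bp. Its B box was found at the 150 bp mock peak and the 300 bp Ara-C peak, and no DNR peak overlapped either. The DNR peak of LINC01556 lay 697 bp downstream of the start. The genes of this paragraph that lie outside the naming rule were chosen after their values were seen.

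The GC box also differed with recurrence in the mock and Ara-C lists. It was present in 31.9% (26.0 to 38.5) of mock members found in another list and in 15.5% (12.5 to 19.1) of the rest. In the Ara-C list the shares were 29.5% (23.8 to 35.9) and 14.9% (12.5 to 17.6), and in the DNR list 20.4% (11.8 to 32.9) and 11.1% (8.11 to 15.0), whose intervals overlap. The CTCF core was present in 7.14% (4.38 to 11.4) and 4.16% (2.68 to 6.40), whose intervals overlap. In the Ara-C list the CTCF shares were 6.91% (4.23 to 11.1) and 2.06% (1.25 to 3.38), and in the DNR list 7.41% (2.92 to 17.6) of 54 and 0.923% (0.314 to 2.68) of 325.

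By chromosome, mock members were densest on chromosomes 18 (58.1 per Mb of window), 6 (56.5), 22 (49.6) and 13 (47.7), and chromosome Y had none (0). Chromosome 18 also led the DNR list, with 40 members or 50.6 per Mb, and chromosome 13 the Ara-C list, with 74 members or 95.3 per Mb. The density of all peaks on each chromosome was not set beside these values, so nothing particular to lncRNA starts is read from this ranking. DNA copy number was not measured in these files, and its part in these densities was not tested. In the last megabase of the chromosome arms lay 19 mock (2.85%, 1.83 to 4.41), 16 Ara-C (1.69%, 1.05 to 2.74) and 22 DNR members (5.80%, 3.86 to 8.63). Peaks at coding starts lay there in 3.32%, 3.05% and 5.62%, those at coding gene 5′ ends in 3.05%, 2.84% and 5.64% and peaks away from both in 1.43%, 1.26% and 2.23%, so that the higher DNR share was present in every class. A small RNA gene of the annotation lay under 10 mock members (1.50%, 0.816 to 2.74), 12 Ara-C members (1.27%) and 2 DNR members (0.528%, 0.145 to 1.90), against 0.135%, 0.0969% and 0.101% of peaks away from both. The shares were 0.279%, 0.247% and 0.236% at coding starts and 0.348%, 0.304% and 0.226% at coding gene 5′ ends. For DNR the interval of members overlaps those of all other classes.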

How the data were processed

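Peak positions were taken from the BED files that the authors deposited, 1 per condition, which hold chromosome, start and end and no score, count or signal. Per the labels and the study's methods, single-end reads were aligned to hg19 with CASAVA 1.8.2, extended, piled up and scaled in 50 bp bins with Pasha, and the input was subtracted. Peaks were runs above a value of 32, with gaps of up to 100 bp joined. The authors' read filters and pooling of 3 replicates precede every list. Starts were read as 1-based, and chromosome M was left out.

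Gene starts came from GENCODE 44 lifted to GRCh37, the build of the files, with 18702 lncRNA genes and 146567 coding transcript starts. Bases more than 5 kb from coding starts and within 1 kb of a lncRNA start formed the windows, and N bases were left out. A peak within 1 kb of several starts counted for each of these genes and once as a peak. Intervals are 95% Wilson (shares), exact Poisson or binomial (numbers and ratios) and Newcombe (differences), and neighbouring peaks are not independent. Scripts used Python 3.11.15, numpy 2.4.6, scipy 1.17.1 and pysam 0.24.0 and were tested on simulated data.

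The members and gene lists were chosen with earlier results of these data known. The rule named up to 10 genes with overlapping peaks in all 3 lists, 10 with mock and Ara-C only, 5 for each other pair, the 3 widest of each single list, and listed genes with a peak. Genes with a symbol came first, then larger summed width. For 1 of the genes so named, the result is not reported here. CpG content, motifs, gene context, chromosome ends and the class of coding gene 5′ ends were added after the data were seen.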

Additional observations from a re-analysis of the deposited data

How the results depend on the processing

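The 17 counts, shares and ratios were recomputed under 10 other settings, which gave 117 values, 82 of them within the limits set for no change (counts within 1.5 times the reported count, ratios and shares inside the 95% interval of the reported value) and 35 beyond; none (0) changed direction, and the ratio to an even spread stayed above 1 throughout (mock 1.70 to 2.37, Ara-C 1.50 to 1.96, DNR 1.30 to 1.72). With peaks of at least 200 bp, the numbers were 405 mock, 538 Ara-C and 200 DNR peaks, the ratios 2.37, 1.88 and 1.72, the Ara-C share within 250 bp 41.8%, the genes in more than 1 list 210 and in all 3 lists 27, the mock share found under Ara-C 38.5% and the Ara-C share found in mock 28.8%. Within 500 bp of the start, the numbers were 419, 587 and 205, the mock and Ara-C ratios 2.30 and 1.96, the genes 205 and 19, and the shares 36.3% and 25.9%. With every lncRNA transcript start, the mock ratio was 1.70, the Ara-C share within 250 bp 41.7% and the genes in all 3 lists 80. With coding gene 5′ ends only, the mock and Ara-C ratios were 2.06 and 1.72. With an overlap of at least 50% of the peak, the shares were 25.9% (mock in Ara-C), 3.45% (mock in DNR), 18.4% (Ara-C in mock) and 3.18% (Ara-C in DNR). With a peak within 500 bp counted as found, these were 38.4%, 8.25%, 28.6% and 7.42%, and the DNR shares 14.2% (in mock) and 17.7% (in Ara-C). Fewer or more peaks and starts enter under the settings of width, distance and start, and overlap settings are stricter or looser by construction; beyond this the cause was not tested. Keeping over 10 kb from coding starts, both other backgrounds and, chosen after seeing the data, leaving out chromosome ends and surroundings of gaps moved no value beyond its limit. Leaving out chromosome Y, which held no member (0), could not move a count or share and is not among these settings. No paired analysis was possible because there was a single pooled library per condition. Depth is unknown, so absence from a list does not show absence of SUMO-2/3.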
